A study of Mus musculus with 16 samples.

Results

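The red cell programme was followed as 48 listed genes: globin chains, haem synthesis and iron import, the membrane skeleton, blood group and surface proteins, red cell enzymes, late remodelling genes, and regulators and receptors. Members were found by gene symbol among the 41214 Ensembl identifiers counted by RNA sequencing in 16 mice with T-ALL, T cell acute lymphoblastic leukaemia, and 47 of the 48 had an identifier. Ahsp is not analysed here. All 47 passed the filter on low counts that left 17470 genes for testing. With the 4 libraries from mice without ICN used alone, 29 of them passed, so the others entered the tests through the ICN libraries. For description, 35 of the 47 were listed as erythroid-restricted and 12 as broadly expressed.

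All mice were C57Bl6, and all samples were labelled as T-ALL tissue. The 8 groups held 2 mice each. With ICN, an activated form of Notch used to induce the leukaemia, and p53 wt, the groups were Miz1 wt, Miz1 deltaPOZ with the title suffix Lck and Miz1 deltaPOZ with the suffix Vav. The same 3 Miz1 groups were made with ICN and p53 ko. Without ICN there were Miz1 wt and Miz1 deltaPOZ with the suffix Vav, both p53 ko, so no mouse without ICN had p53 wt. Zbtb17 encodes Miz1, a transcription factor with zinc fingers, and deltaPOZ is a form of it without the POZ domain, through which it binds partner proteins. The sources used here do not give the organ sampled, any sorting of cells, age, sex or what the suffixes stand for.

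Red cells form from committed progenitors that depend on erythropoietin, the hormone read by Epor, and on the transcription factors Gata1 and Klf1. These progenitors switch on iron uptake, haem synthesis and the globin genes, assemble a spectrin and ankyrin skeleton under the membrane, and finally clear their nucleus and mitochondria. Bone marrow makes red cells throughout life in the mouse, and the mouse spleen does so as well, whereas T cell leukaemia cells are of another lineage.

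The libraries held 36463524 to 68523196 gene counts. Levels are given as CPM, counts per 1e6 gene counts of the library after TMM scaling, unless another scale is named. Trp53, the gene of p53, ran from 70.2 to 113.5 CPM over 6 libraries with p53 wt and from 7.33 to 30.6 CPM over 10 with p53 ko, with no overlap. Zbtb17 ran from 42.9 to 137.8 CPM over 6 libraries with Miz1 wt and from 38.0 to 87.5 CPM over 10 with deltaPOZ, and a count over the whole gene does not check a deletion inside it. The summed level of 18 T cell genes was 3426 to 7439 CPM in the 12 ICN libraries and 6697 to 14630 CPM in the 4 without ICN, with Cd3e, a T cell receptor subunit, at 67.2 CPM or more in every library.

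ICN leukaemias were first compared with those without ICN among p53 ko mice, as the mean over Miz1 wt and Miz1 deltaPOZ Vav (4 against 4 mice). Of the 47 red cell genes, 45 were higher with ICN by edgeR's quasi-likelihood test (Benjamini-Hochberg adjusted p under 0.05 over all genes) and 0 were lower. Over all genes tested, 24% were called in this comparison, 12.9% as higher and 11.1% as lower. Unadjusted, 46 of the 47 had a p under 0.05, against 37.4% of all genes. The median log2 change of the 47 was 8.40, against -0.02 for all genes. All 35 erythroid-restricted genes were called, with a median of 10.63, and 10 of the 12 broadly expressed ones, with a median of 1.85. In 45 of the 47, every one of the 4 ICN libraries lay above every one of the 4 without ICN, a separation in this direction that 12.1% of all genes showed. Set against all 12 ICN libraries, the 4 libraries without ICN lay below every one of them for 44 genes, against 8.25% of all genes tested, and Tfrc, Xpo7 and Bnip3l overlapped. Some of the 47 entered the test only through the ICN libraries, and the members were chosen with earlier results of these data known. These counts and medians, and those by role and by stage below, therefore describe the list and are not independent support for it.

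**Figure D1:**
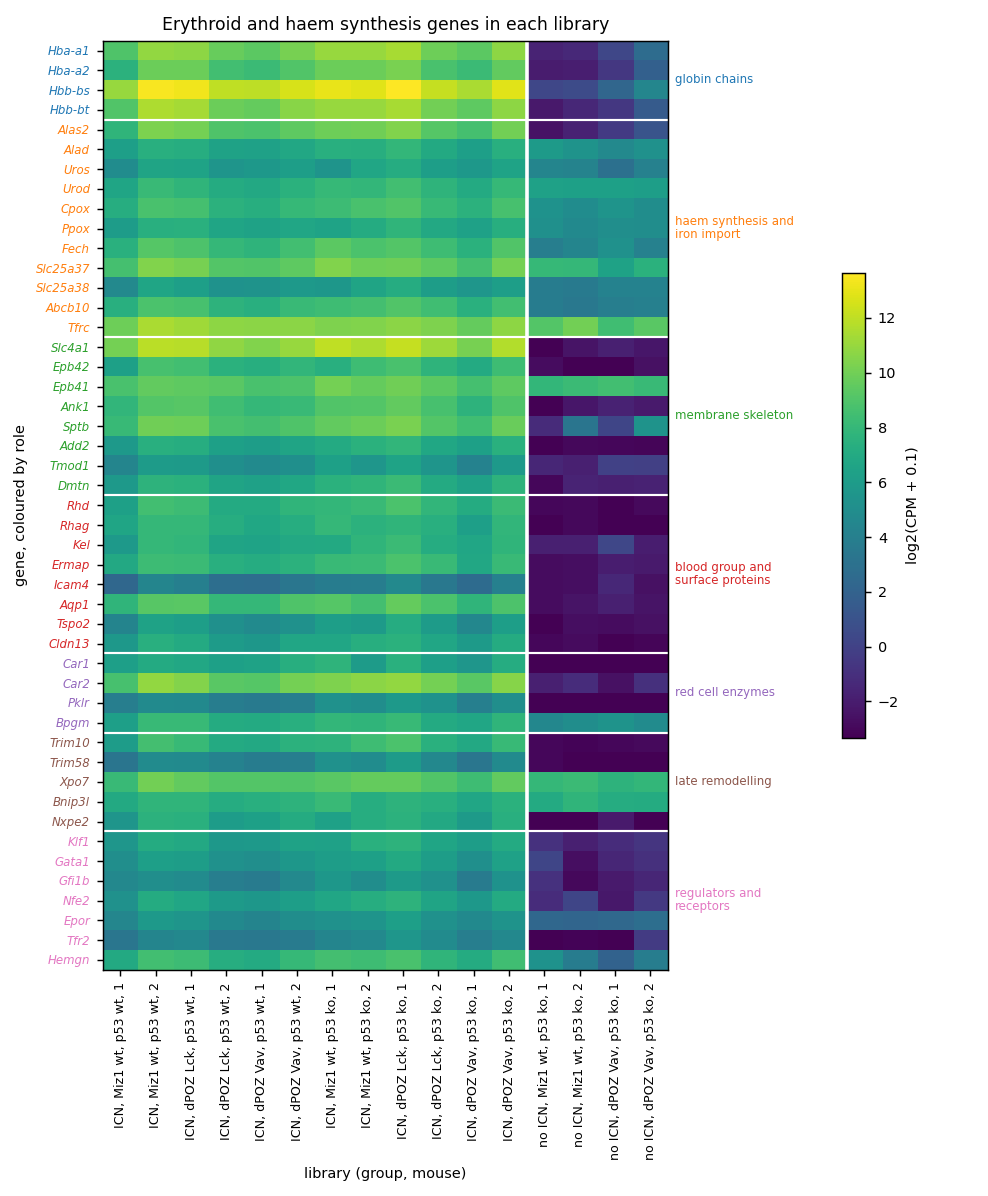
Level of each of the 47 genes (rows, ordered and coloured by role) in each of the 16 libraries (columns), as log2(CPM + 0.1). The white vertical line parts the 12 ICN libraries from the 4 without ICN, where most erythroid-restricted genes are at the low end of the scale while Tfrc, Epb41, Xpo7 and Bnip3l stay high.

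In bulk tissue, fewer cells of a type and less RNA per cell cannot be told apart. Genes of other blood lineages also differed between the same libraries, where 12.9% of all genes tested were called higher with ICN and 11.1% lower. Neutrophil genes were higher with ICN in 14 of 14 cases, and their summed level was 57.8 to 9700 CPM in the ICN libraries against 1.63 to 2.78 CPM without ICN. Megakaryocyte and platelet genes were higher in 9 of 12 (sums 13.2 to 143 against 6.56 to 11.7 CPM; Gp6 and Gp9 were at 0 in all 4 libraries without ICN), mast cell and basophil genes in 7 of 8 (11.8 to 215.7 against 0.939 to 29.6 CPM; Fcer1a at 0) and B cell genes in 7 of 10 (194.3 to 1474 against 66.6 to 380.8 CPM). Macrophage genes were higher in 5 of 13 (198.7 to 808.2 against 114.6 to 227.5 CPM), and of the 18 T cell genes 2 were higher and 4 lower. Among the ICN libraries, the neutrophil and megakaryocyte sums were both lowest in Miz1 wt p53 ko mouse 2, at 57.8 and 13.2 CPM. That library held 7567 CPM of the beta globin Hbb-bs, whose median over the 12 ICN libraries was 6858 CPM. Both sums were highest in deltaPOZ Lck p53 ko mouse 1, at 9700 and 143 CPM, which held 12800 CPM of Hbb-bs. In Miz1 wt p53 wt mice 1 and 2 the neutrophil sums were 959.1 and 59.2 CPM and the megakaryocyte sums 16.9 and 41.2 CPM. These mice held 2099 and 11260 CPM of Hbb-bs, so the neutrophil sum and Hbb-bs did not keep 1 order over the ICN libraries. The part of the other lineages in the red cell result was not tested.

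The bases before the start sites of some red cell genes are shown as description. Gata1 and Klf1 are known to bind short motifs in such stretches, GATA sites and CACCC boxes. Their part in the changes given here was not tested. The stretches below come from RefSeq (GRCm38.p6), on the strand of the gene, 5′ to 3′, and are numbered back from the RefSeq start. Each is cut where the GENCODE gene model begins, except 30 bases shown around one match. Capitals mark matches on either strand to 4 GATA motifs, which are AGATAA as well as TGATAA and, ending in G instead, AGATAG as well as TGATAG. They also mark the box CACCC and its longer form CACACCC. A match on the other strand reads as TTATCT or as TTATCA for GATA and as GGGTG for the box. They show Hba-a1 from -250 to -162 (chr11:32283422-32283510, plus strand), Hbb-bs from -250 to -169 (chr7:103828097-103828178, minus strand) and from -103 to -74 (chr7:103828002-103828031), Hbb-bt from -250 to -74 (chr7:103813997-103814173, minus strand), Alas2 from -250 to -43 (chrX:150547167-150547374, plus strand), Ermap from -250 to -17 (chr4:119190012-119190245, minus strand), Klf1 from -250 to -55 (chr8:84901732-84901927, plus strand) and Epor from -250 to -1 (chr9:21963577-21963826, minus strand).
Hba-a1: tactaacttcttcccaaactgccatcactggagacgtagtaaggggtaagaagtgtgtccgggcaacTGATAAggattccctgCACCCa
Hbb-bs, upstream: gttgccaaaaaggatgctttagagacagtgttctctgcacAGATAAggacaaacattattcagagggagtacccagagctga
Hbb-bs, nearer the start: ttccgtagagcCACACCCtggtaagggcca
Hbb-bt: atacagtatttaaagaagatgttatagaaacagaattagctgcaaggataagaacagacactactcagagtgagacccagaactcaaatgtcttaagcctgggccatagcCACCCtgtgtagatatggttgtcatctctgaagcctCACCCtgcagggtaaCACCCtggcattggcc
Alas2: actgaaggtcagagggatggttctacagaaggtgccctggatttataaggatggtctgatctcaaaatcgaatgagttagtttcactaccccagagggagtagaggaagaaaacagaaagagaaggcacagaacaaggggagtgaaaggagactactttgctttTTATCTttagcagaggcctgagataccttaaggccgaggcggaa
Ermap: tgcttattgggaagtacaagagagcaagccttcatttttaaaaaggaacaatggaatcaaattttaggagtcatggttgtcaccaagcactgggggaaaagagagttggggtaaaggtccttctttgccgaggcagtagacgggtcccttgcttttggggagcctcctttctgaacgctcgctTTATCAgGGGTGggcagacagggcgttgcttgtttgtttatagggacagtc
Klf1: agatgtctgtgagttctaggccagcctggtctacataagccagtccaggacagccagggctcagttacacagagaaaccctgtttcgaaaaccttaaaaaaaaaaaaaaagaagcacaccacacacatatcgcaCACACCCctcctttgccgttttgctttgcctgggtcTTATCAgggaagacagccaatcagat
Epor: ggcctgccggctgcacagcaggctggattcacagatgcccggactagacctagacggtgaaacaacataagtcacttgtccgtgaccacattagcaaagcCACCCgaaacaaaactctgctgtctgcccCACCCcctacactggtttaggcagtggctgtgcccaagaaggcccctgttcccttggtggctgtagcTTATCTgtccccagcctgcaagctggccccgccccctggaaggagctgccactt

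Over whole windows of 250 bases, 36 of the 47 genes had at least 1 window, 44 in all. A match to any of the 4 GATA motifs was found in 20 of the 30 windows of erythroid-restricted genes (66.7%), in 3 of the 14 windows of broadly expressed ones and in 26.6% of all 32817 windows of the table. CACCC was found in 25 of the 30 (83.3%) against 52.0% of all windows, and CACACCC, which contains CACCC, in 6 of the 30 (20%) against 6.9%. TGAGTCA, a motif of the Nfe2 protein and of AP-1, was found in 2 of the 30 (6.7%) against 4.5%. CCAAT was found in 46.7% against 33.8%, and TATAAA in 20% against 12.4%. These matches describe letters in a window and are not measured binding.

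The 4 adult globin genes were higher with ICN, with a median log2 change of 10.62, and per kilobase of exon they gave the highest levels of the set in the ICN libraries. Hbb-bs, a beta chain (ENSMUSG00000052305, chromosome 7, 103826534 to 103828096, GRCm38), measured 8518 and 7567 CPM in ICN p53 ko mice with Miz1 wt and 2911 and 7442 CPM in those with deltaPOZ Vav. The Miz1 wt mice without ICN had 1.10 and 1.39 CPM, the deltaPOZ Vav mice without ICN 4.65 and 22.2 CPM. Both sides stood far apart, and the log2 change was 10.62 ± 0.92 (SE; adjusted p = 2.83e-05). Hba-a1, an alpha chain (ENSMUSG00000069919, chromosome 11, 32283511 to 32284465), measured 2069, 2070, 671.2 and 1714 CPM in the same ICN libraries and at 0.225, 0.287, 1.12 and 6.29 CPM without ICN, a log2 change of 10.63 ± 0.88 (adjusted p = 2.09e-05). Hba-a2, the second alpha gene, lay at 898.5, 922.1, 309.8 and 766.6 CPM against 0.150, 0.172, 0.572 and 3.65 CPM, and its log2 change was 10.20 ± 0.92. Hbb-bt, the second beta gene, lay at 2105, 2058, 698.1 and 1752 CPM against 0.125, 0.273, 0.572 and 2.87 CPM, with a log2 change of 11.36 ± 0.97. Over all 12 ICN libraries, Hbb-bs ran from 2099 to 12800 CPM (median 6858), Hbb-bt from 528.2 to 2957 CPM (median 1667), Hba-a1 from 500.7 to 2746 CPM (median 1418) and Hba-a2 from 190.5 to 1185 CPM (median 651.5). Without deltaPOZ Vav mouse 2 without ICN, the log2 change was 11.39 for Hbb-bs, 12.16 for Hbb-bt, 11.51 for Hba-a1 and 11.16 for Hba-a2. In all 4 genes the libraries of both sides were apart, deltaPOZ Vav mouse 1 was the lowest of the 4 ICN libraries, and deltaPOZ Vav mouse 2 was the highest of those without ICN. The 2 genes of each pair share sequence. Of their 50-base windows, 65.8% for Hbb-bs, 58.3% for Hbb-bt, 67.5% for Hba-a1 and 86.9% for Hba-a2 occur in the partner. Reads may therefore have been split or dropped between copies.

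The globin genes together took 0.345% to 1.86% of gene counts in the 12 ICN libraries (median 1.08%) and 0.000155% to 0.00367% in the 4 without ICN. Beta counts exceeded alpha counts 3.22 to 4.98 times with ICN and 2.53 to 3.62 times without, which overlapped. Hbb-bs exceeded Hbb-bt 3.68 to 4.95 times with ICN and 5.11 to 8.8 times without, with no overlap. Without ICN this ratio rests on only 5, 19, 25 and 165 counts of Hbb-bt. The embryonic genes Hbb-y, Hbb-bh1 and Hba-x stayed at or under 0.503 CPM in every library and at 0 in every library without ICN.

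Of the 11 genes of haem synthesis and iron import, 10 were higher with ICN, against 12.9% of all genes tested. Their median log2 change was 2.21. Alas2, the erythroid form of the first enzyme of the pathway (ENSMUSG00000025270, chromosome X, 150547375 to 150570638), measured 951.4, 1023, 395.2 and 1025 CPM with ICN and at 0.0751, 0.215, 0.641 and 1.98 CPM without, a log2 change of 10.83 ± 0.86 (adjusted p = 1.77e-05). Over all 12 ICN libraries it ran from 219.6 to 1364 CPM. It was the only one of the 11 whose log2 change reached those of the globins. The enzymes that follow it are made in most cells and changed less. The log2 change was 1.80 for Alad, 2.21 for Uros, 1.49 for Urod, 3.23 for Cpox, 1.89 for Ppox and 4.32 for Fech, the last step, which inserts iron. Fech lay at 649.7, 457.0, 178.5 and 535.7 CPM with ICN and at 15.5, 20.6, 37.7 and 17.1 CPM without, so both sides were well apart. Among the mitochondrial carriers the change was 4.47 for Abcb10, 2.07 for Slc25a38, which carries glycine, and 2.33 for Slc25a37, which imports iron. Slc25a37, though listed as erythroid-restricted, was well detected without ICN, at 267.0, 249.2, 85.6 and 181.8 CPM, against 1369, 957.8, 384.8 and 1108 CPM with ICN. The transferrin receptor Tfrc, which dividing cells of many kinds carry, lay at 1333, 1364, 783.2 and 1697 CPM with ICN and at 554.4, 1044, 347.9 and 628.4 CPM without. Its libraries overlapped, and its log2 change of 1.05 ± 0.37 did not pass the test (adjusted p = 0.0597). The call for Urod was lost without ICN deltaPOZ Vav p53 ko mouse 2 (log2 change 1.16, adjusted p = 0.0514).

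All 8 membrane skeleton genes were higher with ICN, against 12.9% of all genes tested, with a median log2 change of 10.99. Slc4a1, the anion exchanger band 3 to which the skeleton is anchored (ENSMUSG00000006574, chromosome 11, 102348824 to 102366203), measured 4240, 2978, 1156 and 3277 CPM with ICN and at 0, 0.0861, 0.183 and 0.104 CPM without. Its log2 change was 14.96 ± 0.86 (adjusted p = 3.63e-06). Ank1, the ankyrin that ties spectrin to band 3, lay at 522.6, 558.4, 202.4 and 509.9 CPM against 0, 0.101, 0.206 and 0.139 CPM (log2 change 12.03 ± 0.66). Add2, the adducin beta subunit, lay at 135.0, 184.9, 80.8 and 172.0 CPM against 0, 0.0287, 0.0229 and 0.0174 CPM (12.70 ± 0.71). Over all 12 ICN libraries Slc4a1 ran from 1115 to 4575 CPM, Ank1 from 202.4 to 758.3 CPM and Add2 from 58.8 to 225.8 CPM. Without ICN, these 3 genes had 0 counts in Miz1 wt mouse 1 and 9 or fewer in each of the other libraries. Without Miz1 wt mouse 2, which leaves 0 counts in that group, the fitted change was 17.15 for Slc4a1, 14.32 for Ank1 and 14.18 for Add2. Epb42, protein 4.2, lay at 169.1, 338.2, 132.5 and 326.7 CPM against 0.050, 0, 0 and 0.0695 CPM (log2 change 12.99 ± 0.98), and Dmtn, dematin, at 185.0, 218.4, 83.2 and 201.5 CPM against 0.0250, 0.230, 0.183 and 0.208 CPM (9.95 ± 0.71). Over the 12 ICN libraries Epb42 ran from 78.5 to 427.5 CPM and Dmtn from 58.5 to 309.6 CPM. Leaving out Miz1 wt mouse 1, Miz1 wt mouse 2 or deltaPOZ Vav mouse 2 without ICN gave 14.53, 12.29 and 15.03 for Epb42, and leaving out Miz1 wt mouse 2 gave 11.11 for Dmtn. Tmod1, which caps the short actin filaments, changed by 6.85 ± 0.56. Sptb, the spectrin beta chain, differed among the mice without ICN: Miz1 wt mice had 0.325 and 9.47 CPM and deltaPOZ Vav mice 1.05 and 41.2 CPM, while Slc4a1 stayed at 0.183 CPM or less. Its log2 change was 6.13 ± 1.19 (adjusted p = 0.00435), 8.30 without deltaPOZ Vav mouse 2 and 8.04 without Miz1 wt mouse 2. Sptb is 1 of 15 of the genes that overlap a gene on the opposite strand, whose reads may be counted with theirs. The others are Alas2, Uros, Cpox, Ppox, Slc25a37, Abcb10, Epb41, Ank1, Add2, Tmod1, Icam4, Pklr, Xpo7 and Nxpe2. Epb41, protein 4.1, which many cells make, changed by 1.25 ± 0.24 (adjusted p = 0.00441).

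All 8 blood group and surface genes were higher, against 12.9% of all genes tested, with a median log2 change of 11.68. Ermap, a Scianna blood group protein of the erythroid membrane (ENSMUSG00000028644, chromosome 4, 119175457 to 119190011), had the lowest adjusted p of the set. It lay at 287.3, 306.8, 113.7 and 284.1 CPM with ICN and at 0.050, 0.0574, 0.160 and 0.139 CPM without (log2 change 11.35 ± 0.56, adjusted p = 2.77e-06). Aqp1, the water channel, lay at 573.8, 373.2, 220.3 and 480.7 CPM against 0.050, 0.0861, 0.183 and 0.0868 CPM (12 ± 0.70). Neither gene overlapped between the groups. Rhd, of the Rh complex, lay at 237.7, 292.6, 141.0 and 301.1 CPM against 0.0250, 0.0287, 0 and 0.0347 CPM (log2 change 13.21 ± 0.86). Cldn13, a claudin of mouse erythroid cells, lay at 105.9, 159.7, 60.1 and 138.6 CPM against 0.0250, 0.0431, 0 and 0.0174 CPM (12.36 ± 0.78). Without ICN, Rhd had 1, 2, 0 and 2 counts and Cldn13 1, 3, 0 and 1, so both fitted changes rest on few reads. Rhag, the Rh-associated glycoprotein, lay at 252.4, 191.1, 76.5 and 233.6 CPM with ICN and at 0, 0.0287, 0 and 0 CPM without. It had 34052 counts over the 4 ICN libraries and 2 over the 4 without, a ratio of pooled rates of 19000 with a 95% counting interval of 5259 to 156900. Over the 12 ICN libraries Ermap ran from 113.7 to 451.3 CPM, Aqp1 from 220.3 to 799.0 CPM, Rhd from 81.3 to 466.0 CPM, Cldn13 from 49.6 to 184.0 CPM and Rhag from 76.5 to 255.2 CPM. The lowest ICN level of each stayed far above its highest level without ICN. Without deltaPOZ Vav mouse 2 without ICN, the change was 14.78 for Rhd and 13.52 for Cldn13. The remaining 3 changed by 8.93 (Kel, the Kell protein), 7.01 (Icam4, the LW blood group) and 10.22 (Tspo2, a porphyrin-binding protein). Kel changed by 9.89 without deltaPOZ Vav mouse 1 without ICN, and Tspo2 by 12.13 without Miz1 wt mouse 2 without ICN. Icam4 ran from 4.93 to 25.5 CPM over the 12 ICN libraries.

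The 4 red cell enzymes were all higher, against 12.9% of all genes tested. Car1, carbonic anhydrase 1, lay at 208.3, 64.8, 48.1 and 145.8 CPM with ICN and had 0 counts in all 4 libraries without ICN, where 3 counts over the group would be 0.0142 CPM. Set against those 3 counts, its pooled level of 107.6 CPM in the 4 ICN libraries was 7565-fold higher. This bound covers counting only, not the spread among mice. Pklr, the pyruvate kinase of liver and red cells, lay at 37.7, 31.2, 15.8 and 32.7 CPM and also had 0 counts without ICN. The same counting bound for Pklr was 1993-fold. Both rest on the depth of the libraries without ICN. Car2, carbonic anhydrase 2, lay at 1317, 1681, 641.6 and 1486 CPM against 0.175, 0.344, 0.0687 and 0.399 CPM (log2 change 12.24 ± 0.84, and 13.15 without deltaPOZ Vav mouse 2 without ICN). Over the 12 ICN libraries Car1 ran from 48.1 to 208.3 CPM, Car2 from 421.0 to 1890 CPM and Pklr from 11.8 to 58.9 CPM. Bpgm, which makes 2,3-bisphosphoglycerate, changed less, by 2.64 ± 0.43, and lay at 22.7 to 42.3 CPM without ICN.

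Of the 5 late remodelling genes, 4 were higher, against 12.9% of all genes tested. This list is one of roles, and the stage lists used below place Trim10 and Nxpe2 as middle. Trim10, a ring finger protein of maturing red cells, lay at 196.0, 338.0, 123.2 and 279.7 CPM with ICN and at 0.0250, 0.0144, 0.0229 and 0.0347 CPM without (log2 change 13.13 ± 0.94, adjusted p = 9.57e-06). Without ICN, Trim10 had only 1, 1, 1 and 2 counts, so this fitted change rests on few reads. Over the 12 ICN libraries Trim10 ran from 65.0 to 455.8 CPM. Trim58, which acts in loss of the nucleus, had 4792 counts with ICN and 1 count without, a ratio of 5347 with a 95% counting interval of 959.3 to 211200. Nxpe2 had 6 counts without ICN, all in deltaPOZ Vav mouse 1, and 0 in both Miz1 wt mice. Its log2 change of 13.16 ± 1.09 is therefore a fitted value that rests on depth, and it was a fitted 15.50 without that deltaPOZ Vav mouse. The 2 broadly expressed genes stood apart from these. Xpo7, a nuclear export factor, changed by 1.36 ± 0.37 (adjusted p = 0.0212), and this call was lost when any of 5 libraries was left out (adjusted p 0.0519 to 0.101): ICN Miz1 wt p53 ko mouse 2, ICN deltaPOZ Vav p53 ko mouse 2, Miz1 wt mouse 1 without ICN, or either deltaPOZ Vav mouse without ICN. Bnip3l, which marks mitochondria for removal and is active in many cells, lay at 285.9, 148.9, 103.2 and 185.4 CPM with ICN and at 130.9, 219.5, 145.8 and 139.9 CPM without. Its groups overlapped, with a log2 change of 0.16 ± 0.29 (adjusted p = 0.72).

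All 7 regulators and receptors were higher, against 12.9% of all genes tested, with a median log2 change of 7.32. Klf1, the zinc finger activator of the beta globin gene, lay at 81.8, 174.9, 69.6 and 134.6 CPM with ICN and at 0.425, 0.187, 0.343 and 0.521 CPM without (log2 change 8.32 ± 0.62, adjusted p = 1.3e-05). Gata1, which binds GATA motifs in most erythroid genes, lay at 70.5, 81.4, 34.8 and 84.0 CPM against 1.05, 0.0574, 0.252 and 0.417 CPM (7.32 ± 0.76, adjusted p = 0.00011). Over all 12 ICN libraries Klf1 ran from 47.7 to 204.2 CPM (median 94.4) and Gata1 from 32.9 to 127.2 CPM (median 68.1). Both factors were apart between the groups, and the highest Gata1 level without ICN was in Miz1 wt mouse 1, the library with the fewest globin counts. Nfe2, a partner of small Maf proteins at globin control regions, lay at 103.0, 152.0, 53.3 and 133.3 CPM against 0.350, 1.05, 0.114 and 0.608 CPM (log2 change 7.70 ± 0.72). Gfi1b, a repressor needed for erythroid and megakaryocyte cells, lay at 49.4, 31.6, 13.1 and 39.3 CPM against 0.425, 0.0287, 0.137 and 0.260 CPM (7.30 ± 0.72). Tfr2, the second transferrin receptor, lay at 21.3, 25.6, 15.5 and 23.7 CPM with ICN, and without ICN it had 0, 1, 0 and 39 counts, so that 1 mouse, deltaPOZ Vav mouse 2, carried its level. Over all 12 ICN libraries Nfe2 ran from 37.4 to 203.7 CPM, Gfi1b from 13.0 to 61.4 CPM and Tfr2 from 9.88 to 49.0 CPM. The log2 change of Tfr2 was 8.40 ± 0.96, 11.98 without that mouse and 9.46 without Miz1 wt mouse 2 without ICN. Without Miz1 wt mouse 1 without ICN, Gata1 changed by 8.84 and Gfi1b by 8.63, and without deltaPOZ Vav mouse 2 without ICN, Nfe2 changed by 8.55.

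Epor, the erythropoietin receptor, kept a level without ICN: 4.88, 4.45, 5.10 and 6.96 CPM, against 38.3, 43.0, 26.7 and 42.5 CPM with ICN (log2 change 2.82 ± 0.36, adjusted p = 0.000448). Hemgn, a nuclear protein of blood progenitors and erythroid cells, lay at 40.0, 13.8, 4.01 and 14.7 CPM without ICN and at 373.9, 330.5, 140.3 and 353.6 CPM with ICN (4.22 ± 0.61, adjusted p = 0.000961). Over all 12 ICN libraries Epor ran from 20.1 to 77.3 CPM and Hemgn from 125.2 to 435.3 CPM. For both genes the libraries without ICN lay below those with ICN, and Hemgn changed by 4.84 without deltaPOZ Vav mouse 2 without ICN.

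**Figure D2:**
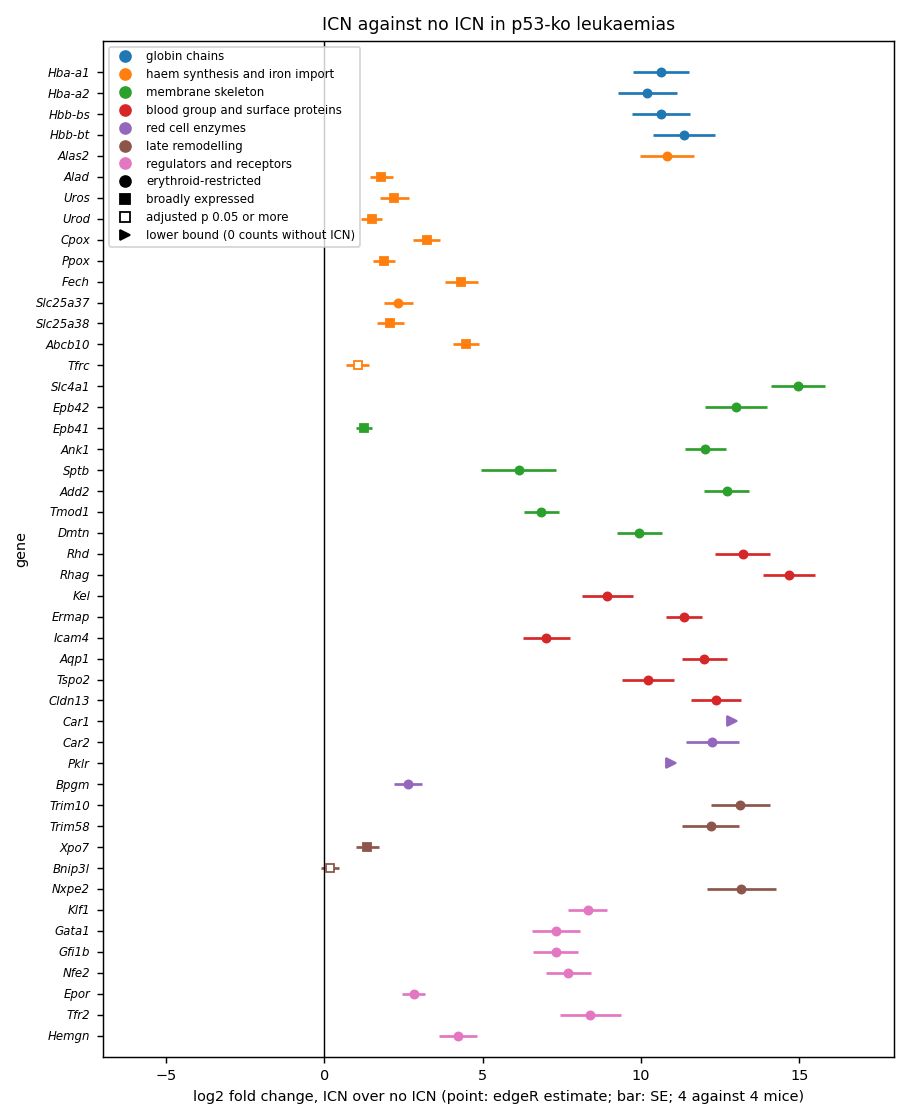
Log2 fold change of ICN over no ICN in p53 ko leukaemias (horizontal axis) for each of the 47 genes (vertical axis, coloured by role), with the SE as a bar; arrows mark the lower bounds of Car1 and Pklr, and open squares the 2 genes that did not pass the test. Erythroid-restricted genes (circles) lie mostly between 7 and 15, and broadly expressed genes (squares) between 0.16 and 4.47. Points of genes with 0 counts in a whole group without ICN, such as Rhag, Trim58 and Nxpe2, are fitted values.

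Other genes of the same biology were listed as well, to be set against 12.9% of all genes called higher with ICN and 11.1% called lower. Of 28 other erythroid genes, 26 were tested, and 24 were higher with ICN and 0 lower, with a median log2 change of 3.77. They included Tmcc2, whose log2 change was 12.37 ± 0.77. The 2 tested genes that were not called were Zfpm1, the Gata1 partner FOG1 (0.73, adjusted p = 0.112), and Cat, catalase (0.33, adjusted p = 0.308). Of 19 genes of iron handling and haem breakdown, 6 were higher and 2 lower, with a median of 0.31. The lower count was near the share over all genes. The iron exporter Slc40a1 changed by 3.65 ± 0.54, Hfe by 1.38 ± 0.29 and the ferritin heavy chain Fth1 by 1.03 ± 0.22. Bach1, a repressor that haem releases from DNA, fell by 1.37 ± 0.36 (adjusted p = 0.0191), and Pcbp2, an iron chaperone, fell by 0.81 ± 0.21 (adjusted p = 0.017).

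Levels of different genes can be set side by side only per length, here as CPM per kilobase of exon. By the median of the 12 ICN libraries, Hbb-bs came first at 8930, followed by Hbb-bt at 2371, Hba-a1 at 1747 and Hba-a2 at 976.8. Slc4a1 at 537.4, Car2 at 503.2 and Alas2 at 340.9 came next, on the same scale. Among the regulators, Hemgn stood at 117.0, Klf1 at 61.7, Nfe2 at 33.0, Gata1 at 27.9, Epor at 19.4, Gfi1b at 16.5 and Tfr2 at 4.91, the lowest of the 47. In the libraries without ICN the order changed: Tfrc led at a median of 95.6, then Bnip3l at 37.0, Slc25a37 at 35.8 and Urod at 31.1, and Hbb-bs stood at 3.93.

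By stage of maturation, the erythroid-restricted genes were averaged on the log2 CPM scale (prior count 2) as early, middle and late lists. In the 12 ICN libraries the early mean ran from 5.11 to 7.06, the middle mean from 6.67 to 8.67 and the late mean from 6.80 to 9.11. The difference between the late and the early mean depends on the lengths of different genes, so it is compared only between libraries. It ran from 1.69 to 2.33 in the ICN libraries and from -0.73 to 1.11 without ICN. Of the 35 genes, 22 stayed under 1 CPM in all 4 libraries without ICN. The difference there rests on few reads for most genes and is not read as a stage of maturation. Among the ICN libraries it was smallest in Miz1 wt p53 wt mouse 1, where all 3 means were lowest, and largest in deltaPOZ Lck p53 wt mouse 1. All 3 means were highest in deltaPOZ Lck p53 ko mouse 1. Without ICN the early mean was -2.50 to -1.30, the middle mean -2.04 to -1.47 and the late mean -2.53 to -0.29. The stage lists were also counted with broadly expressed genes included. Higher with ICN were 8 of 9 early, 21 of 21 middle and 16 of 17 late genes, against 12.9% of all genes tested. Their median log2 changes were 7.70, 7.01 and 10.22. The middle list holds broadly expressed genes such as Urod (1.49) and Abcb10 (4.47), so these medians do not rank the stages.

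**Figure D3:**
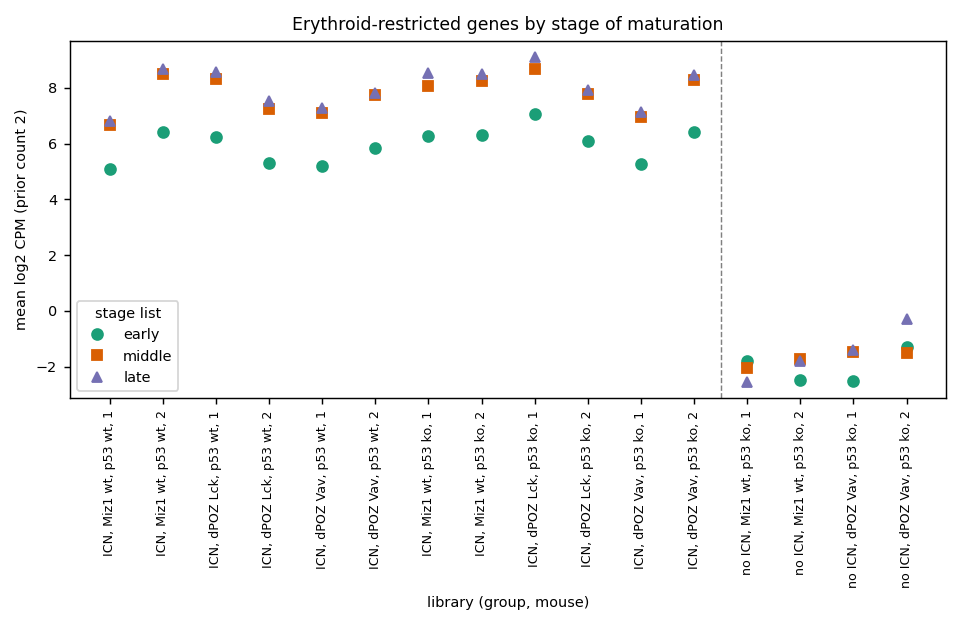
Mean log2 CPM (vertical axis, prior count 2) of the early, middle and late lists of erythroid-restricted genes in each library (horizontal axis). The 3 means rise and fall together over the 12 ICN libraries left of the dashed line, and the 4 libraries without ICN lie between -2.53 and -0.29.

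Among the 12 ICN libraries the red cell genes varied together. The geometric mean of the 35 erythroid-restricted genes was highest in deltaPOZ Lck p53 ko mouse 1, at 356.6 CPM, and lowest in Miz1 wt p53 wt mouse 1, at 82.2 CPM. The former was the highest ICN library for 31 of the 35 genes and the latter the lowest for 23. Both mice of a group could differ as much as groups did. In Miz1 wt p53 wt mice, all 35 genes were higher in mouse 2, by a median of 3.43 times, and Hbb-bs lay at 2099 and 11260 CPM. The mice differed by a median of 2.07 times in deltaPOZ Lck p53 wt, 1.5 times in deltaPOZ Vav p53 wt, 2.05 times in deltaPOZ Lck p53 ko and 2.50 times in deltaPOZ Vav p53 ko, and in each of these groups all 35 genes were higher in the same mouse. Only the Miz1 wt p53 ko mice were close, with a median of 1.23 times, 14 genes higher in mouse 1 and 21 in mouse 2.

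Relative to the mean of the other erythroid-restricted genes, most of this spread went. Over the 12 ICN libraries the SD of the log2 level had a median of 0.73 over the 35 genes (0.56 to 0.86), and that of the relative level 0.24 (0.12 to 0.57). Sptb and Dmtn followed the others most closely, with relative SDs of 0.12. Car1 followed least, with 0.57: relative to the other genes it ran from -1.94 in Miz1 wt p53 ko mouse 2 to -0.06 in deltaPOZ Vav p53 wt mouse 2. Gfi1b came next at 0.43, lowest in deltaPOZ Lck p53 wt mouse 1, then Pklr at 0.40, lowest in deltaPOZ Vav p53 wt mouse 2. Among the broadly expressed genes, Tfrc had a relative SD of 0.54 and Bnip3l of 0.47, both lowest in deltaPOZ Lck p53 ko mouse 1, the library with the most red cell RNA, and Cpox one of 0.15. These are descriptions over 12 libraries that share their scaling.

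The few red cell reads without ICN did not keep the proportions seen with ICN. Per count of Slc4a1 there were 2.98 to 4.46 counts of globin in the 12 ICN libraries. Without ICN, Miz1 wt mouse 1 had 64 globin counts and 0 of Slc4a1, Miz1 wt mouse 2 had 148 and 6, deltaPOZ Vav mouse 1 had 302 and 8, and deltaPOZ Vav mouse 2 had 2017 and 6. The last 3 libraries thus had 24.7, 37.8 and 336.2 globin counts per count of Slc4a1, all above the range with ICN. Pooled over the 4, the ratio was 126.5 (95% counting interval 81.8 to 207.5) against 3.94 with ICN, and deltaPOZ Vav mouse 2 supplied most of its globin counts. Per count of Alas2 the ratios overlapped, at 9.87 to 21.3 without ICN and 11.4 to 15.1 with ICN. Intervals cover counting error only, and reads were not collapsed to molecules as far as the sources used here say. Of the 35 erythroid-restricted genes, 22 stayed under 1 CPM in all 4 libraries without ICN. Hbb-bs, Slc25a37, Bpgm, Epor and Hemgn were at 1 CPM or more in each of the 4, and Sptb in 3 of them.

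**Figure D4:**
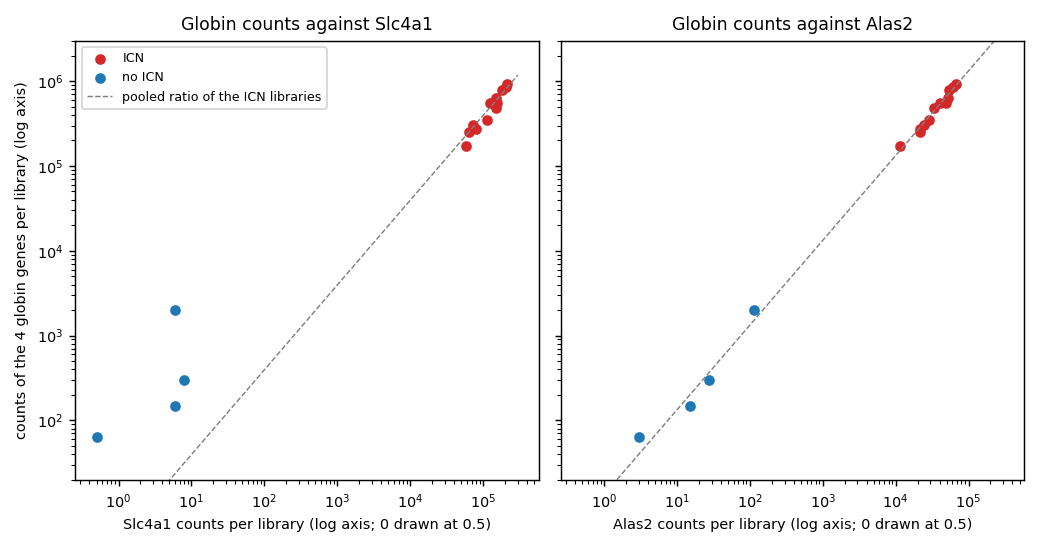
Summed counts of the 4 globin genes (vertical axis, log scale) against counts of Slc4a1 (left) and Alas2 (right; horizontal axes, log scale, 0 drawn at 0.5) in each library. The 4 libraries without ICN lie far above the dashed pooled ratio of the ICN libraries for Slc4a1 and close to it for Alas2.

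The study asked what loss of the POZ domain of Miz1 does to T-ALL expression, and edgeR called no change among the red cell genes in any of the deltaPOZ comparisons. DESeq2 and the fit without the low-count filter called some of them, as given below and with the other settings. Averaged over 3 backgrounds, 0 of the 47 passed edgeR's test in either direction, against 0.0172% of all genes. Unadjusted, 2 of the 47 had a p under 0.05, against 4.92% of all genes, and DESeq2 called 0. The median log2 change was 0.03. With ICN and p53 wt, 0 of 47 passed, against 0% of all genes, with 43 of 47 estimates negative and a median of -0.19. Hbb-bs lay at 10150 and 4070 CPM with deltaPOZ Lck and 3997 and 6274 CPM with deltaPOZ Vav, inside the range of the Miz1 wt mice. This median was 0.90 without Miz1 wt mouse 2 and -0.81 without Miz1 wt mouse 1. With ICN and p53 ko, 0 of 47 passed, against 0.00572% of all genes, and the median was -0.14. Unadjusted p was under 0.05 for 0 of the 47 in either background, against 1.87% of all genes with p53 wt and 3.78% with p53 ko, and DESeq2 called 0.

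Without ICN, deltaPOZ Vav mice had more globin reads than Miz1 wt mice, but no gene passed. Of the 47 genes, 29 pass the low-count filter in these 4 libraries alone. The other 18 were in the test through the ICN libraries, among them Car1 and Pklr with 0 counts on both sides. EdgeR called 0 of the 47, against 0% of all genes, and 0 of the 29 when these 4 libraries were fitted alone. Unadjusted p was under 0.05 for 7 of the 47, against 7.68% of all genes. Those 7 were the 4 globins, Tfr2, Alas2 and Tmod1. For Hba-a1, the levels above gave a log2 change of 3.83 ± 1.01 (adjusted p = 0.357), and for Hbb-bs 3.42 ± 0.97 (adjusted p = 0.42). Alas2 changed by 3.06 ± 1.03 (adjusted p = 0.489) and Tmod1 by 1.96 ± 0.73 (adjusted p = 0.54). DESeq2 called 4 genes as higher, Hba-a1, Hbb-bs, Hba-a2 and Alas2. Both deltaPOZ Vav libraries lay above both Miz1 wt libraries for 14 of the 47 genes and below for 5, against 12.8% and 13.2% of all genes. By role, the median was 3.56 for the globins, 1.17 for the membrane skeleton, 0.05 for haem synthesis and iron import and -0.02 for regulators and receptors. Of the 26 other erythroid genes, 0 were called, 11 had positive and 14 negative estimates, and their median was -0.03. Whether these groups of genes differ was not tested. The test of the difference between this effect and that with ICN called 0 of 47, against 0% of all genes, and 8 had an unadjusted p under 0.05, against 6.99% of all genes. Its largest globin estimate was 4.62 ± 1.30 for Hba-a1 (adjusted p = 0.702), the 1 gene DESeq2 called there.

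**Figure D5:**
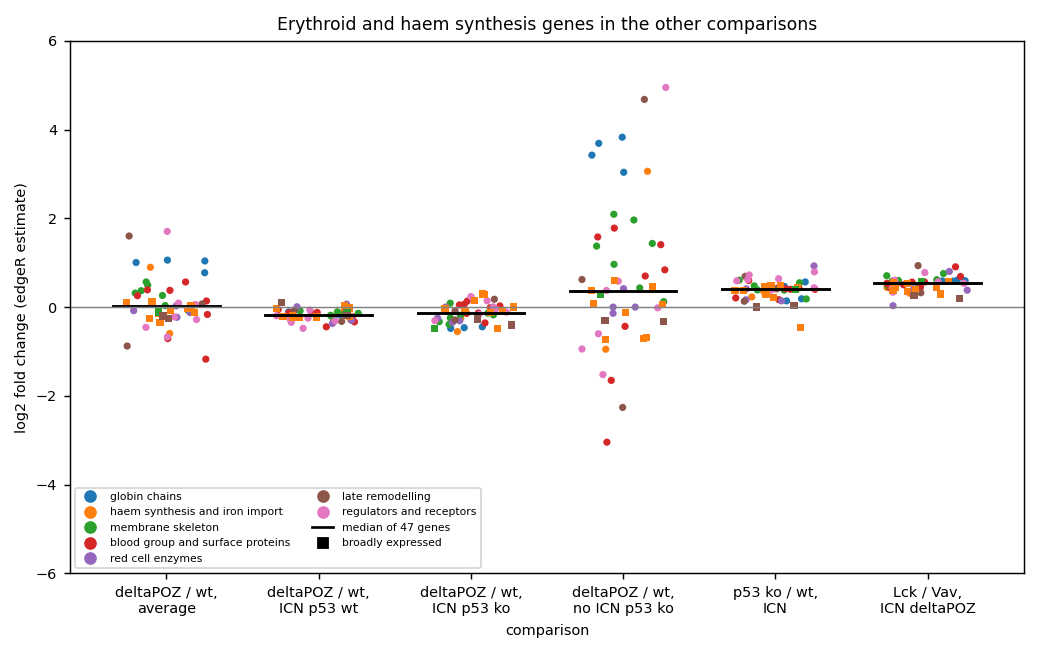
Log2 fold change (vertical axis, edgeR estimate) of each of the 47 genes in 6 comparisons (horizontal axis; points spread sideways for sight, coloured by role, squares for broadly expressed genes, line at the median). No point passed the test; with ICN the points lie close together, while without ICN, where levels are near 0, they run from -3.04 to 4.95.

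The p53 comparison among ICN leukaemias (6 against 6 mice) called 0 of 47 genes, against 0.195% of all genes (0.12% higher and 0.0744% lower). Changes were positive for 46 of the 47, with a median of 0.41 against 0.00 for all genes, and Tfrc was the exception at -0.46 ± 0.30. The lowest p was that of Pklr. Pklr lay at 15.5 and 27.5 (Miz1 wt), 26.4 and 14.4 (deltaPOZ Lck) and 11.8 and 15.4 CPM (deltaPOZ Vav) with p53 wt, and at 37.7 and 31.2, 58.9 and 39.5, and 15.8 and 32.7 CPM in the same order with p53 ko. Only deltaPOZ Vav p53 ko mouse 1 lay within the p53 wt range. The log2 change of Pklr was 0.93 ± 0.27 (adjusted p = 0.155), and DESeq2 called it. Only this gene had an unadjusted p under 0.05, against 15.5% of all genes. Of the neutrophil genes 0 of 14 were called either, but all 14 had an unadjusted p under 0.05, with a median log2 change of 3.12, and so did 7 of the 8 mast cell and basophil genes, with a median of 2.94. The part of these cells in the Pklr difference was not tested.

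Lck was compared with Vav among the ICN deltaPOZ mice (4 against 4). Of the 47 genes, 0 passed, against 0% of all genes, while all 47 changes were positive, with a median of 0.54 against 0.01 for all genes. The largest was 0.93 for Trim58, and unadjusted p was under 0.05 for Epb41 (0.58 ± 0.24) and Pklr (0.80 ± 0.33), against 3.15% of all genes. DESeq2 called 0. Neutrophil genes were positive in 14 of 14 cases, with a median of 1.32 and 2 unadjusted p under 0.05, macrophage genes in 12 of 13, with a median of 0.47, and megakaryocyte and platelet genes in 12 of 12, with a median of 0.43. Of these lists 0 genes were called, and their part in the red cell estimates was not tested. The erythroid-restricted genes varied together over libraries, so their signs are not separate observations. Their geometric means were 246.2, 120.7, 356.6 and 176.3 CPM with Lck and 106.6, 161.9, 99.2 and 242.2 CPM with Vav, which overlapped. The p53, ICN and Lck comparisons reuse libraries of the deltaPOZ comparisons, so they are not independent of each other.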

How the data were processed

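Total RNA was extracted from T-ALL samples of 16 mice and sequenced from stranded mRNA libraries, per the labels' protocols. The authors deposited raw counts per gene, 1 table per mouse. The submitters' processing notes list the tools TopHat2 2.0.10, HTSeq, SAMtools and DESeq, and as builds GRCm38 and mm10. The sources used here give neither strand setting nor annotation release, so reads of 15 members that overlap a gene on the other strand may include that gene's. The 5 totals that name no gene were left out: not-unique alignments took 45.81% to 63.74% of a library, which bears on the near-identical globin copies, and genes kept 20.57% to 39.64%.

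Symbols and coordinates came from GENCODE M21 (40340 of 41214 identifiers matched). Counts were fitted with edgeR 4.0.16 (TMM, filterByExpr, 8 group means, quasi-likelihood F test, Benjamini-Hochberg over 17470 genes, threshold 0.05) in R 4.3.3. An SE is the log2 change divided by the root of F. DESeq2 1.42.0, other scalings and filters, and each library left out were alternatives. Each sample is labelled as a mouse of its own, and p-values rest on the spread among mice. On counts simulated for ICN against no ICN, 43 of 50 genes changed by 2 (log2) were recovered, and 50 of 50 at 3, with 13 false calls. The simulation gave every gene the same spread (dispersion 0.2082) and changed no gene of low mean level. The data were fitted with a spread per gene, so the simulation does not speak for single members. Members and lists were chosen with earlier results of these data known, and all members may be named; levels in each of the 8 libraries of the ICN comparison are given for the globins, Alas2, the 14 members with the lowest adjusted p and the regulators, with the range over all 12 ICN libraries. Genes of other lists are named when called (up to 6 a list) or as extremes of their list. Protein sequences were not used here. Some genes of these lists are not reported here by name.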

Additional observations from a re-analysis of the deposited data

How the results depend on the processing

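For ICN against no ICN, 43 to 46 genes were higher and 0 lower under all 23 alternatives, and no change reversed. Without the low-count filter, other comparisons gained calls: 7 higher (among them the 4 globins, Alas2 and Tfr2) and 2 lower for deltaPOZ averaged; 9 higher and 1 lower for deltaPOZ without ICN; 9 higher for the difference of that effect from the one with ICN; 6 higher for p53 ko; and 2 higher for Lck against Vav. DESeq2 gave 4 higher for deltaPOZ without ICN, 1 for that difference and 1 for p53 ko. The cause was not tested. Calls over all genes, given as higher and lower, moved too. ICN against no ICN went from 2255 and 1939 to 1693 and 1214 with the 10 p53 ko libraries fitted alone. DESeq2 moved deltaPOZ averaged from 0 and 3 to 94 and 33, deltaPOZ with ICN from 0 and 0 to 0 and 15 (p53 wt) and from 0 and 1 to 103 and 17 (p53 ko), deltaPOZ without ICN from 0 and 0 to 182 and 51, the difference of effects from 0 and 0 to 63 and 18, p53 ko from 21 and 13 to 694 and 391, and Lck against Vav from 0 and 0 to 9 and 6. Without the low-count filter the same comparisons, in that order, gave 335 and 167, 75 and 136, 217 and 247, 542 and 204, 479 and 134, 962 and 626, and 172 and 105. Fitted on the ICN libraries alone, p53 ko gave 74 and 75 and Lck against Vav 0 and 1. Leaving out 1 library gave 1455 to 2274 higher and 836 to 2369 lower for ICN. The fewest higher were without ICN deltaPOZ Vav p53 ko mouse 2 (1455 and 1069) and the fewest lower without mouse 1 of that group (1749 and 836), and lower calls also fell by over 1.5 times without ICN Miz1 wt p53 ko mouse 1 (1702 and 1242) and without deltaPOZ Vav mouse 2 without ICN (1865 and 1158). For deltaPOZ without ICN it gave 54 and 54 without deltaPOZ Vav mouse 2, 27 and 5 without Miz1 wt mouse 2 and 2 and 5 without Miz1 wt mouse 1. For deltaPOZ averaged it gave at most 12 and 12, and for p53 ko 2 to 105 and 0 to 27, the most without ICN Miz1 wt p53 ko mouse 2. A stricter filter gave 6 and 2 for deltaPOZ without ICN and 0 and 0 for deltaPOZ with ICN and p53 ko.

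Leaving out deltaPOZ Vav mouse 2 without ICN moved 12 of the 45 called log2 changes by over 1.5-fold, all upward, the 4 globins among them, and leaving out Miz1 wt mouse 2, Miz1 wt mouse 1 or deltaPOZ Vav mouse 1 without ICN moved 10, 4 and 2. No ICN library moved any that far. Depth limits levels without ICN: 3 counts over these 4 libraries are 0.0142 CPM. No paired analysis was made, because each sample is labelled as a mouse of its own and the sources used here name no pairs. The labels carry no replicate numbers, so mouse 1 and mouse 2 of a group are numbered here in sample order.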
